A study of Mus musculus with 12 samples.

Results

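The cytochrome P450 genes of the mouse heart were taken as every gene whose symbol on the array platform is Cyp followed by a digit. The array held 75 such genes on 101 of its 25697 probes, among 16593 genes with a symbol. One probe stands for each gene, the one with the largest average over the arrays, and both probes of Cyp2b10 are described. The family was chosen by the measured aged-against-young difference of Cyp2b10 in an earlier analysis of these data, so the differences of Cyp2b10 between groups are given as a description, with no test.

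Hearts of C57Bl/6 mice were hybridised to 12 Illumina bead arrays in 3 groups of 4: aged mice of 30 to 32 months that had received 3 mM spermidine in the drinking water from month 4, untreated aged mice of 30 to 32 months, and untreated young mice of 6 months. All were kept on standard chow under specific-pathogen-free housing. Spermidine is a natural polyamine, and the series concerns its protection of the heart and its effect on lifespan. The sample titles hold differing numbers, taken here to identify mice. Nothing else in the labels states that each heart came from another mouse, so a p-value covers only the scatter among these 12 arrays, which could be technical. Sex was not given in the sources used here.

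P450 enzymes are haem proteins that insert an oxygen atom into drugs, steroids, fatty acids and sterols, with electrons passed on by P450 oxidoreductase or, in mitochondria, by ferredoxin. Members of families Cyp1 to Cyp3 mostly handle foreign compounds and are most abundant in liver, Cyp4 members oxidise the ends of fatty acids and eicosanoids, and the other families mostly serve steroid, bile acid, vitamin and retinoid metabolism. Cyp2b10 is the textbook target of the nuclear receptor CAR, encoded by Nr1i3, in mouse liver, and it is also made in the airway.

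Cyp2b10 lies on chromosome 7 in a cluster of related genes, among whose members on the array the annotation places Cyp2b13, Cyp2b9, Cyp2b23, Cyp2b19, Cyp2g1, Cyp2a5, Cyp2a12 and Cyp2f2 in this order on the same side of it. The start regions of 3 Cyp2b genes are printed because the levels of Cyp2b10 and Cyp2b23 were correlated over the old hearts, whereas Cyp2b9 was above background on no array. They run from 250 bases before to 50 bases after the annotated start, in the direction of transcription, and come from RefSeq on GRCm38.p6, where they are Cyp2b10 at chr7:25897408-25897707 on the + strand, Cyp2b23 at chr7:26686381-26686680 on the - strand and Cyp2b9 at chr7:26173159-26173458 on the + strand. Capitals mark the longest run of bases that Cyp2b10 and Cyp2b23 share.
Cyp2b10: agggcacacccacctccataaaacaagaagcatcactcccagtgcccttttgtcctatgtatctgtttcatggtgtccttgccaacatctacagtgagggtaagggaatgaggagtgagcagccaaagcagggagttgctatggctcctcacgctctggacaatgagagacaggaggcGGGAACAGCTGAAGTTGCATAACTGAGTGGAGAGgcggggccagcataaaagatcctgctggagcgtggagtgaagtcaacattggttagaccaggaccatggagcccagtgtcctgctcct
Cyp2b23: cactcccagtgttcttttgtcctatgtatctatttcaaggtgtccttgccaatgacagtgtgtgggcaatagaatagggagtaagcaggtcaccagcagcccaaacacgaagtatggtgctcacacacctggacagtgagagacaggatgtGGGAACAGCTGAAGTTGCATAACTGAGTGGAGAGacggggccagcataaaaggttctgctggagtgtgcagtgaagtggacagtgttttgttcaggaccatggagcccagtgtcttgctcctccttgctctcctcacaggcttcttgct
Cyp2b9: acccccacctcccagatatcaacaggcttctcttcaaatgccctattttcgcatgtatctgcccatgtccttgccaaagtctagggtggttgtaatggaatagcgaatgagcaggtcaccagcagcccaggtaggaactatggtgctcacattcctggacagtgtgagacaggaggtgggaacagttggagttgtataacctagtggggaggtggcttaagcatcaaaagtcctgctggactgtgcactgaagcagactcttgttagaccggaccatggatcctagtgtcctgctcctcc
The shared run is 34 bases long. It ends 39 bases before the annotated start of Cyp2b10 and 66 bases before that of Cyp2b23. Of 32851 RefSeq start regions of 300 bases, 2 held it, the regions of Cyp2b10 and Cyp2b23 from which it was taken. That these 2 hold it was thus given beforehand, and the count is a description. The longest run that Cyp2b10 shared with another Cyp2b gene was 14 bases for Cyp2b9 and Cyp2b13 and 20 bases for Cyp2b19. Aligned end to end, Cyp2b10 and Cyp2b23 were identical at 225 of 259 aligned bases. Cyp2b10 was identical to Cyp2b9 and to Cyp2b13 at 229 of 286 each, and to Cyp2b19 at 229 of 275. Among these genes Cyp2b23 thus had the highest share of aligned bases identical to Cyp2b10, but the fewest identical bases. Cyp2b23 and Cyp2b19, a gene below the limit on all arrays, were identical at 216 of 252. Likeness to Cyp2b10 was thus not particular to Cyp2b23. The letters AGGTCA, a half-site read by many nuclear receptors, were searched for on both strands. They occurred in the regions of Cyp2b23, Cyp2b9, Cyp2b13 and Cyp2b19 and not in that of Cyp2b10, and 16.3% of all regions held them. A match of letters is a description of sequence and shows no binding. Of the 75 genes, 56 had an entry in this table of start regions.

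The measured quantity was the intensity of each probe, deposited as whole numbers after subtraction of a background. An intensity counts here as above background if it exceeds a limit of 3 SDs of the array's values below 0 mirrored about 0, which lay between 13.2 and 15.8 units, with 11689 to 12337 probes per array above it. Arrays averaged 259.5 to 312.9 units. Levels and differences are on the scale log2(quantile-normalized intensity + 16), which understates changes of dim probes. A probe was tested if it exceeded the 25th percentile of its array on at least 4 arrays. Defining transcripts of heart muscle (Myh6, Actc1 and others) were above the limit on all 12 arrays for 6 of 6 measured markers. The arrays of spermidine replicate 3 and young replicate 4 stood apart by airway transcripts: Scgb1a1, the secretoglobin of airway club cells, read 3005 and 7620 units there, against -5 to 8 units on the other 10 arrays. Aged replicate 1 stood apart by atrial markers, whose summed intensity was 13013 units there and 48754 to 57708 on the other 11 arrays.

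Cyp2b10 was high in hearts of both aged groups and near or below background in young hearts. Its brightest probe read 233, 187, 477 and 134 units in spermidine-treated aged hearts, 101, 540, 779 and 109 units in untreated aged hearts, and 4, 12, 6 and 33 units in young hearts. Every old heart exceeded every young heart, and of the young hearts replicate 4 alone was above the limit. On the log2 scale the level was 7.99 ± 0.62 with spermidine, 8.17 ± 1.47 in untreated aged hearts and 4.79 ± 0.58 in young hearts (SD, n = 4 each). The difference of aged minus young was 3.38, a 10.4-fold higher level, and that of spermidine minus young was 3.20, or 9.22-fold. Since 3 of the 4 young arrays were below the limit, the folds depend on the added constant: with 64 in place of 16 the differences were 2.20 and 1.99 on the log2 scale.

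Spermidine minus untreated aged was -0.18 for Cyp2b10, within the spread of either group. This difference changed sign with single arrays, to 0.34 without aged replicate 3, 0.15 without aged replicate 2 and 0.02 without spermidine replicate 4. Untreated aged hearts fell into a high pair, replicates 2 and 3, and a low pair, replicates 1 and 4, and the spermidine hearts lay between these pairs. The comparisons with spermidine share the aged or young arrays that led to the choice of the gene, so they are given as values only.

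The other probe of Cyp2b10 was dim on all arrays. It read 8, 7, 4 and 5 units with spermidine, 1, 13, 16 and 1 units in untreated aged hearts, and 5, 6, 6 and 12 units in young hearts, and was above the limit on 1 array, aged replicate 3. Its difference of aged minus young was -0.01. Where each probe lies in the transcript was not analysed here.

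**Figure D1:**
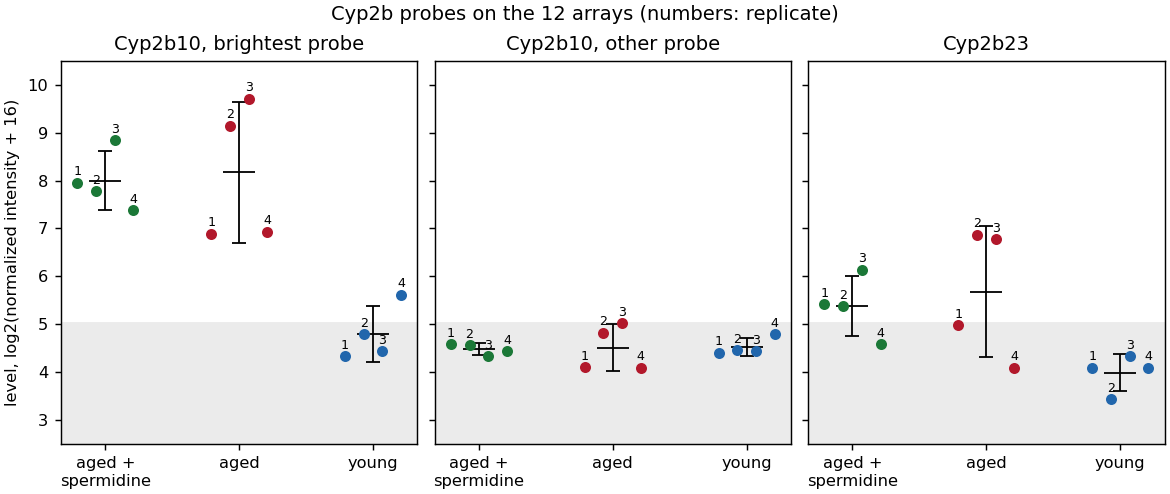
Levels of both Cyp2b10 probes and of Cyp2b23 on each array, as log2(normalized intensity + 16) on the vertical axis, by group on the horizontal axis. Points are arrays with their replicate number, bars are the mean and SD of 4 arrays, and grey marks levels up to 5.03, the highest, over the 12 arrays, of each array's dimmest signal above the limit. The brightest Cyp2b10 probe and Cyp2b23 have the same high aged replicates, 2 and 3, while the other Cyp2b10 probe stays in or at the edge of the grey.

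Of the other Cyp2b genes, Cyp2b23 was the one above background on any array. It read 26, 23, 59 and 7 units with spermidine, 15, 102, 89 and 1 units in untreated aged hearts, and 1, -5, 4 and 1 units in young hearts. It was above the limit in 3 spermidine-treated, 2 untreated aged and 0 young hearts. For a ratio, each young array was therefore raised to its own dimmest signal above the limit where the probe lay under it. Old arrays kept their levels, also where they were below the limit. Group means of the log2 levels then gave 1.71-fold for untreated aged and 1.39-fold for spermidine-treated aged over young hearts. These are lower bounds with respect to the dim young readings alone and take no account of scatter between arrays. In limma over all probes the differences without such raising did not pass (log2 1.70, SE 0.53, adjusted p = 0.163, and log2 1.40, SE 0.53, adjusted p = 0.541). Cyp2b9 read -7 to 5 units, Cyp2b13 -13 to 5 and Cyp2b19 -8 to 1, all below the limit on all 12 arrays.

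Over the 8 old hearts, high levels of the brightest Cyp2b10 probe went with high levels of Cyp2b23. Pearson's r was 0.944 and Spearman's rho 0.905, and r was 0.885 without aged replicates 2 and 3, the arrays farthest from the median of Cyp2b10. The dim second probe of Cyp2b10 gave r = 0.841 and rho = 0.833, but r was 0.526 without these 2 arrays, so that this relation rests on them. These coefficients are a description with no test, since 4 of the 8 arrays are untreated aged ones that led to the choice of Cyp2b10. The Cyp2b genes have similar sequences, and whether the probe named Cyp2b23 also catches Cyp2b10 transcripts was not tested.

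The non-P450 genes most like Cyp2b10 over the 12 arrays, among 11926 probes with a symbol above the limit on at least 4 arrays, were C130026I21Rik (r = 0.932), Alox5ap, the partner protein of the leukotriene-forming lipoxygenase (0.931), the growth factor Vegfd (0.909), the lysozyme Lyz1 (0.908) and the formyl peptide receptor Fpr2 (0.900). These coefficients span young and old arrays together. Within the 8 old arrays r was 0.867, 0.779, 0.565, 0.796 and 0.824 for the same genes in this order. These values describe a ranking and carry no test.

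Markers of other cell types stood as follows beside Cyp2b10. Of 9 measured airway and lung markers, Scgb1a1 and Bpifa1 were below the limit on all old arrays except spermidine replicate 3, and the surfactant genes Sftpa1, Sftpb and Sftpc were below it on all 12. A further surfactant gene, Sftpd, was above it on 2 arrays, at 31 units in spermidine replicate 3 and 110 in young replicate 4. Scgb3a1 was above it on 1 array, young replicate 4, at 42 units. Cbr2 was above it on all 12 arrays, at 151 to 427 units in old and 139 to 629 units in young hearts, and Aldh3a1 on 11. In the 7 old hearts with Scgb1a1 and Bpifa1 below the limit Cyp2b10 read 101 to 779 units. The whole list summed to 158 to 4062 units with spermidine, 186 to 319 in untreated aged and 153 to 10896 in young hearts. Without both arrays with airway transcripts the Cyp2b10 difference of aged minus young was 3.66. The part of airway cells in the Cyp2b10 values was not tested. Of 9 hepatocyte markers, Alb, Fgb and Tat were below the limit on all arrays, while Ahsg and Hp were above it on all 12, Apoa2 on 10 and Ttr on 7. They summed to 183 to 835 units with spermidine, 112 to 487 in untreated aged and 183 to 981 in young hearts, and their part in the Cyp2b10 values was not tested. Macrophage markers summed to 1797 to 3112 units with spermidine, 2254 to 3223 in untreated aged and 1695 to 2045 in young hearts. Of these markers, 5 of 6 were above the limit on all arrays. C1qc passed in aged against young hearts (limma adjusted p = 0.0421), where 0.797% of all probes passed. The other macrophage markers did not pass (adjusted p 0.0655 to 0.530). The part of macrophage markers in the Cyp2b10 values was not tested. Of 7 adipocyte markers, Adipoq read 25, 176, 173 and 46 units in untreated aged hearts. There Lep read 18, 66, 46 and 18 units and Ucp1 3, 159, 207 and 17. These were highest in replicates 2 and 3, as was Cyp2b10. Cidea read 1221, 1138, 1351 and 1176 units in those hearts, and Plin1, Fabp4 and Retn were below the limit. With spermidine Adipoq read 17, 70, 640 and 137 units, Lep 13, 20, 78 and 40 and Ucp1 -9, 9, 62 and 67. In young hearts Adipoq read 71, 49, 53 and 1165 units, Lep 15, 20, 19 and 30 and Ucp1 89, 7, 69 and 1689. Young replicate 4, with the highest Adipoq and Ucp1 of all arrays, had Cidea at 4128 units and Cyp2b10 at 33. The adipocyte list summed to 914 to 2463 units with spermidine, 1256 to 1766 in untreated aged and 937 to 7067 in young hearts. The part of adipocyte markers in the Cyp2b10 values was not tested. In such whole-tissue samples fewer cells of a type and less RNA per cell cannot be told apart.

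Over the whole family, 24 of 75 genes were above the limit on at least 1 array, and 51 were on none. The genes above it on all 12 arrays numbered 13: Cyp1b1, Cyp2d22, Cyp2e1, Cyp2j9, Cyp2s1, Cyp4b1, Cyp4f13, Cyp4f16, Cyp4v3, Cyp7b1, Cyp11b2, Cyp27a1 and Cyp51. Cyp2b10, Cyp2b23, Cyp4f15, Cyp4f18 and Cyp20a1 were above it on 4 to 11 arrays, and Cyp2a5, Cyp2d40, Cyp2f2, Cyp2u1, Cyp4a12b and Cyp21a1 on 1 to 3. Whole subfamilies typical of liver were below the limit: all 10 Cyp2c genes read at most 6 units, all 6 Cyp3a genes at most 11 and both Cyp1a genes at most 5. Cyp7a1 and Cyp8b1, enzymes of hepatic bile acid synthesis, read at most -2 and 11 units, and Cyp11a1, Cyp17a1 and Cyp11b1 of steroid synthesis were below the limit throughout. Cyp11b2, the aldosterone synthase, lay just above it at 15 to 26 units, and its other probe read -7 to 6 units.

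**Figure D2:**
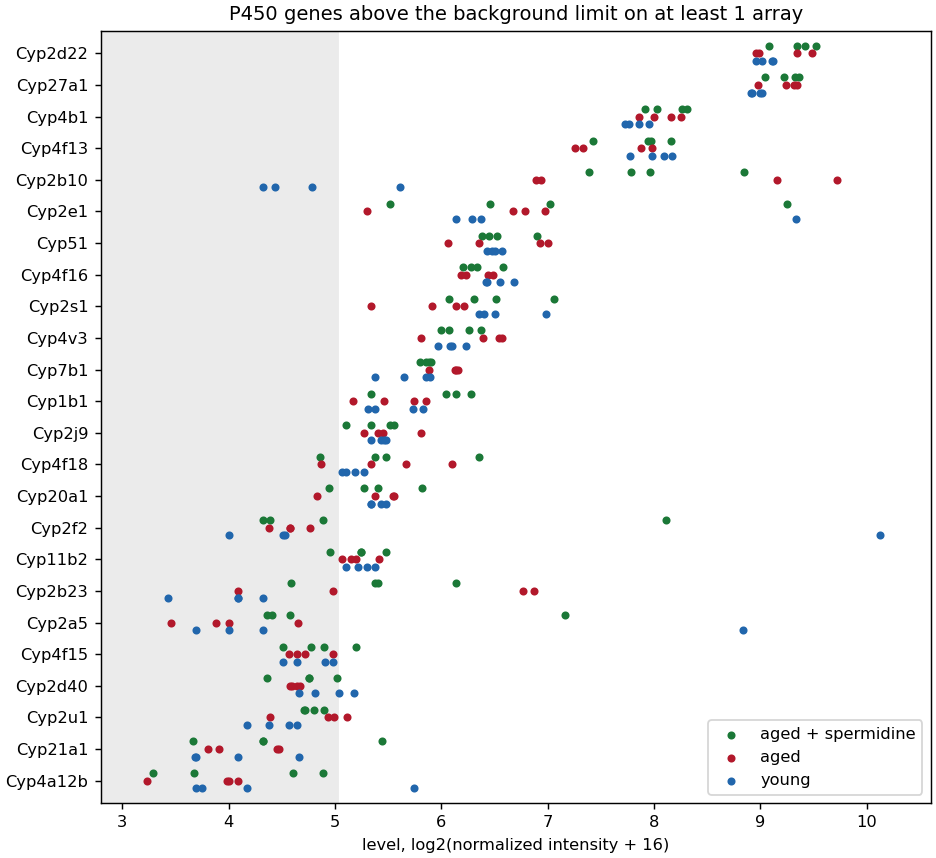
Level of the 24 P450 genes above the background limit on at least 1 array, as log2(normalized intensity + 16) on the horizontal axis, 1 row per gene in order of mean level. Points are the 4 arrays of each group, and the grey area ends at a level of 5.03. Cyp2b10 separates old from young hearts, while Cyp2f2, Cyp2a5 and Cyp2e1 each have 1 high spermidine array and 1 high young array.

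Cyp2b10 and Cyp2e1 were among the brightest P450 probes and are described apart. Of the others, Cyp2d22, a drug-oxidising enzyme, stood at 9.34 ± 0.19 with spermidine, 9.19 ± 0.26 in untreated aged and 9.05 ± 0.08 in young hearts (log2, SD, n = 4 each). Cyp27a1, a mitochondrial sterol hydroxylase, read 516, 567, 623 and 570 units with spermidine, 515, 577, 588 and 664 in untreated aged and 470, 510, 515 and 484 in young hearts. Its groups met at their edges, its aged-minus-young difference was 0.26 (SE 0.12, limma adjusted p = 0.332), and its other probes gave 0.23 and 0.28. Cyp4b1 and Cyp4f13, which oxidise fatty acids, differed by 0.24 and -0.39 (adjusted p = 0.404 and 0.380), and Cyp51, the lanosterol demethylase of cholesterol synthesis, by 0.09 (adjusted p = 0.872). Levels of different probes are not comparable as amounts of transcript.

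In aged against young hearts 0.797% of all 20573 tested probes passed the threshold, 0.540% with higher levels in aged hearts (limma, Benjamini-Hochberg adjusted p below 0.05). Of the 49 P450 genes tested, 1 passed, Cyp2b10, which this contrast had chosen, so the count is a description. Of the other 48, 0 passed, and 5 had an unadjusted p below 0.05 (10.4%, against 14.3% of all probes). These were Cyp2b23, Cyp7b1, Cyp2u1 and Cyp27a1 on the higher side and Cyp2s1 on the lower. The median difference was -0.03 over the 49 genes and -0.01 over all probes, with 22 genes higher and 27 lower. The 26 genes that were not tested were below the limit on all arrays. Single arrays moved this count between 0 and 2: it was 0 without aged replicate 2 or young replicate 1, 2 or 3, and 2 without aged replicate 4, where Cyp2b23 passed as well (log2 2.23, adjusted p = 0.0258).

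Cyp7b1, an oxysterol hydroxylase, read 41, 57, 52 and 57 units in untreated aged and 34, 46, 46 and 26 units in young hearts (0.39, SE 0.13, adjusted p = 0.182). 3 of the aged hearts exceeded all young ones, and aged replicate 1 lay among the young. Cyp2s1, an epithelial enzyme of retinoid and eicosanoid oxidation, read 23, 57, 43 and 60 units in untreated aged and 67, 80, 76 and 108 units in young hearts (-0.66, SE 0.23, adjusted p = 0.210). Every untreated aged heart was below every young heart, and the difference did not pass over all probes. The highest young value is replicate 4, an array with airway transcripts, and the lowest aged value is replicate 1, the array with low atrial markers. Their part in this difference was not tested. Cyp2u1, a fatty acid hydroxylase, read 14, 17, 5 and 19 units in untreated aged and 2, 8, 5 and 9 in young hearts (0.42, SE 0.16, adjusted p = 0.243) and was above the limit on 2 arrays, both aged.

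In spermidine-treated against untreated aged hearts, where 0.00486% of all probes passed, 0 of the 49 P450 genes passed in limma. Apart from Cyp2b10, 3 of 48 had an unadjusted p below 0.05 (6.25%, against 9.45% of all probes): Cyp2s1 and Cyp17a1 on the higher side and Cyp39a1 on the lower. Cyp2s1 read 51, 69, 127 and 55 units with spermidine, against the 23 to 60 units of untreated aged hearts (0.59, SE 0.23, adjusted p = 0.494). These groups overlap, and the highest value is spermidine replicate 3, an array with airway transcripts. Cyp17a1 and Cyp39a1 were below the limit on all 12 arrays. Cyp1b1, which oxidises oestrogens and aromatic hydrocarbons, read 24, 46, 67 and 47 units with spermidine and 19, 30, 37 and 43 units without (0.39, SE 0.21, adjusted p = 0.578).

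In spermidine-treated aged against young hearts 0.160% of all probes passed, 0.00972% with lower levels, and 0 of the 49 P450 genes did. Apart from Cyp2b10, 5 of 48 had an unadjusted p below 0.05 (10.4%, against 7.49% of all probes), all higher: Cyp2b23, Cyp4b1, Cyp27a1, Cyp17a1 and Cyp4a12a, the last 2 below the limit throughout. Cyp4b1 differed by 0.31 (SE 0.13, adjusted p = 0.614) and Cyp27a1 by 0.27 (SE 0.12, adjusted p = 0.624). Both comparisons of old with young hearts use the same young arrays, so the likeness of their values is no independent result. Cyp2b10 made this count 1 under 8 alternative settings and when any 1 of the untreated aged arrays was left out. This is a description and no test, since the young arrays are among those that led to the choice of Cyp2b10.

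**Figure D3:**
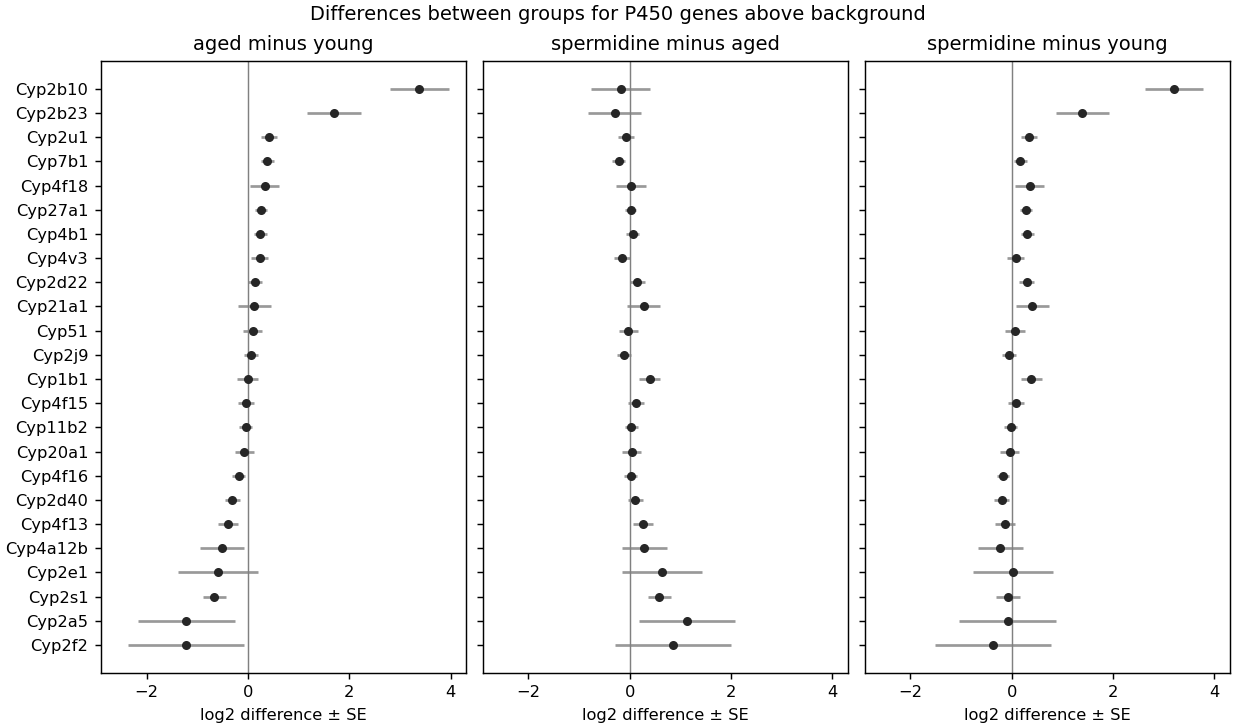
Log2 differences with SE of the 24 P450 genes above the background limit on at least 1 array, 1 row per gene, for untreated aged minus young, spermidine-treated minus untreated aged, and spermidine-treated minus young hearts. Cyp2b10 and Cyp2b23 stand to the right of the other genes in both comparisons of old with young hearts and near 0 in the comparison of spermidine-treated with untreated aged hearts, and Cyp2f2, Cyp2a5 and Cyp2e1 have the widest errors of the 24 genes, ahead of Cyp2b10 and Cyp2b23.

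A second group of P450 genes followed single arrays and not the study's groups. Cyp2f2, an enzyme of airway club cells that activates naphthalene, read 5, 4, 281 and 12 units with spermidine, 11, 5, 8 and 8 in untreated aged and 7, 7, 0 and 1070 units in young hearts. It was above the limit on the 2 arrays with airway transcripts alone. Cyp2a5, the coumarin hydroxylase, did the same, with 138 units in spermidine replicate 3, 428 units in young replicate 4 and -5 to 9 units on the other arrays. Of its other probes, 2 were above the limit on the same 2 arrays alone, at 62 and 65 units in spermidine replicate 3 and 193 and 158 units in young replicate 4. The last probe differed, at -3 to 4 units on all arrays.

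Cyp2e1, which oxidises ethanol and small solvents, read 29, 105, 637 and 63 units with spermidine, 22, 88, 104 and 97 in untreated aged and 68, 66, 60 and 604 in young hearts, so that it was present in all hearts and high in the same 2. Its difference of aged minus young was -0.60 (SE 0.79, adjusted p = 0.776) and turned to 0.17 without young replicate 4. That of spermidine minus aged was 0.63 (SE 0.79, not past the threshold) and turned to -0.10 without spermidine replicate 3. Cyp4a12b was above the limit in young replicate 4 alone, at 37 units, against -7 to 12 units elsewhere. These 2 arrays also had the highest sums of adipocyte markers, 2463 and 7067 units against 914 to 1766 units elsewhere, and their part in the Cyp2e1 values was not tested. Cyp2b10 was at 477 and 33 units on them, the highest value of each of these groups.

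**Figure D4:**
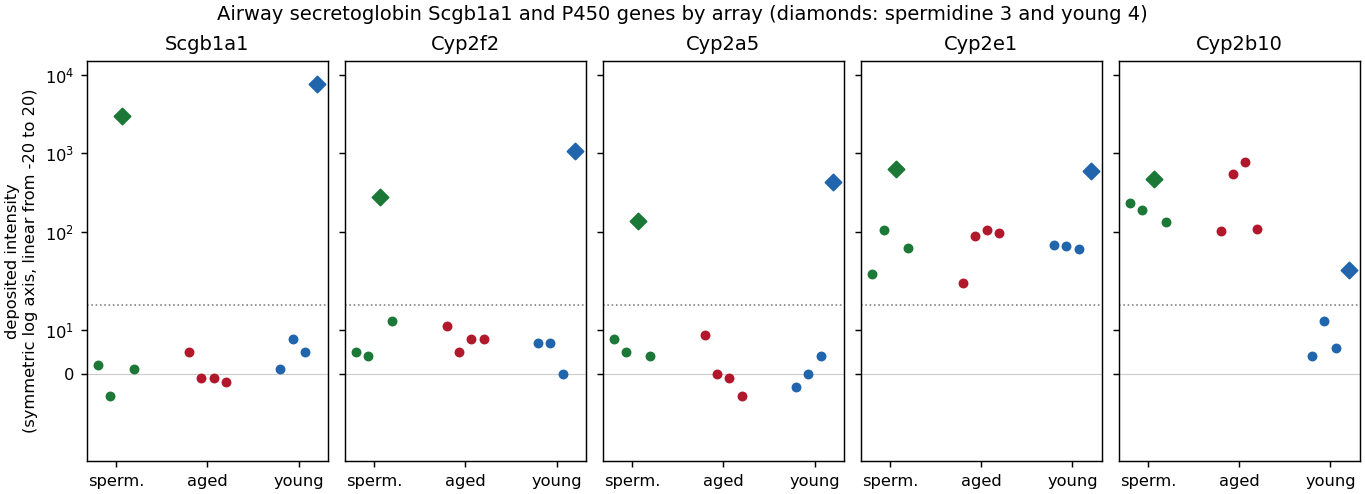
Deposited intensity of Scgb1a1 and of 4 P450 genes on each array, by group, on a symmetric log axis that is linear around 0. Diamonds are spermidine replicate 3 and young replicate 4, and the dotted line is the highest background limit of 15.8 units. Cyp2f2 and Cyp2a5 are high on the same 2 arrays as Scgb1a1. Cyp2b10 is high in the untreated aged hearts, in which Scgb1a1 is at 0 or near it, and has its highest spermidine and young values at the diamonds. The part of airway cells in the Cyp2b10 values was not tested.

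The genes that supply, regulate and accompany P450 enzymes were read from 9 lists with 103 tested genes. In aged against young hearts 4 of these passed, all higher (3.88%, against 0.797% of all probes, 0.540% on the higher side), and 0 passed in either spermidine comparison in limma. The lists were chosen with earlier results of these data known, so the 3.88% is a description and no test of the lists. Of the 4 genes that passed, 2 belong to the 12 genes of haem synthesis and breakdown. Alad, the second enzyme of haem synthesis, read 2923, 2855, 2127 and 2939 units in untreated aged and 1250, 1190, 1411 and 1423 units in young hearts, without overlap (log2 1.05, SE 0.19, adjusted p = 0.0255). With spermidine it read 1345, 1254, 1532 and 2348 units, a difference from untreated aged of -0.72 that did not pass (SE 0.19, adjusted p = 0.431). Blvrb, a biliverdin reductase, read 1292, 769, 724 and 795 units in untreated aged and 467, 424, 521 and 523 in young hearts (0.85, SE 0.17, adjusted p = 0.0401). Erythroid markers, which share haem synthesis, summed to 25694 to 29819 units with spermidine, 24360 to 29805 in untreated aged and 19572 to 24369 units in young hearts. Hba-a1, at 19066 to 28130 units, made up most of these sums. Alas2 and Slc4a1 differed by 0.81 and 1.12 in aged minus young and by 0.49 and 0.38 in spermidine minus aged, and did not pass. The part of erythroid markers in the Alad and Blvrb values was not tested.

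Nqo1, a quinone reductase and the called member of the 4 tested targets of the aryl hydrocarbon receptor, read 974, 727, 630 and 671 units in untreated aged and 405, 446, 477 and 428 in young hearts (0.76, SE 0.13, adjusted p = 0.0217). Gsta2, a glutathione transferase and the called member of the 16 tested CAR and PXR targets, read 65, 48, 32 and 66 units in untreated aged and 18, 26, 28 and 28 in young hearts, at the edge of the threshold (0.75, SE 0.16, adjusted p = 0.04995). The near-identical Gsta1 differed by 0.97 (adjusted p = 0.0588), and probes of these paralogs can catch each other's transcripts. Single arrays carried these calls in part. In 12 fits that each left out 1 array, the call of Nqo1 was lost without aged replicate 2 and young replicates 1, 2 and 3 (adjusted p 0.0516 to 0.0819) and that of Alad without aged replicates 1 and 2 and young replicates 1, 2 and 3 (0.0569 to 0.0863). Blvrb passed in 4 of these fits, those without aged replicate 4 and spermidine replicates 1, 3 and 4, and Gsta2 in 1, that without aged replicate 3 (adjusted p up to 0.118 and 0.166).

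The receptors that switch on Cyp2b10 elsewhere were not above background. Nr1i3 (CAR) read -9 to 2 units and Nr1i2 (PXR) -5 to 6 units on the 12 arrays. Ahr, the aryl hydrocarbon receptor and another of the listed P450 regulators, read -9 to 3 units. A probe below the limit gives only a bound on its transcript. Of 16 tested regulators 0 passed in limma in aged against young hearts, where 0.797% of all probes passed, and 4 had an unadjusted p below 0.05, against 14.3% of all probes. These were Nr1h3, the oxysterol receptor LXR alpha (0.43, adjusted p = 0.177), and Ppara (0.64, adjusted p = 0.218) on the higher side and Ahrr and Rxrb on the lower. Of 6 tested electron donors and partners 0 passed and 2 had an unadjusted p below 0.05, Cyb5b (-0.27, adjusted p = 0.259) and Cyb5r1 (-0.27, adjusted p = 0.324).

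In the lists of substrates and products, 0 genes passed in limma in aged against young hearts, where 0.797% of all probes passed and 14.3% had an unadjusted p below 0.05. Of 17 tested arachidonate and epoxide genes 5 had an unadjusted p below 0.05, all on the higher side, led by the thromboxane synthase Tbxas1 (0.48, adjusted p = 0.0617), itself a P450 enzyme outside the naming rule, and the prostaglandin synthase Hpgds (0.74, adjusted p = 0.0850). Of 16 tested cholesterol synthesis genes 6 did. Of these, 5 were on the lower side, Dhcr7 (-0.45, adjusted p = 0.186), Hmgcs1, Pmvk, Hsd17b7 and Sc5d, and 1 on the higher, Nsdhl (0.60, adjusted p = 0.203). Of 13 tested retinoid genes 2 did, Dhrs3 (-0.94, adjusted p = 0.158) and Aldh1a2 (-0.46, adjusted p = 0.194). Of 5 tested steroid synthesis genes Hsd11b1, which regenerates active glucocorticoid, did (1.04, adjusted p = 0.0597).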

How the data were processed

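RNA from 12 mouse hearts was amplified with the Illumina TotalPrep kit and hybridised to bead arrays, per the labels' protocols. The authors deposited 2 tables of intensity values for 25697 probes, and neither software nor genome build is given in the sources used here. The table called non-normalized per its deposited name was used, and 24.1% of its values lie below 0, so a background had been subtracted. The second deposited table, normalized by the submitters, has a median of 21 on every array and served as an alternative. Its columns have Spearman rank correlations of 0.999 or more with those of the first table, which do not show its scale. Its normalization method is not given in the sources used here. No detection p or control probe was used. Intensities were quantile-normalized, 16 was added, and log2 was taken with a floor of 1. Of the probes, 20573 (80.1%) were tested, and precision is limited by having 4 arrays in a group. Names came from the platform annotation: 23978 probes had 1 symbol, 0 had several and 1719 were unnamed here. All 75 P450 symbols matched a RefSeq gene table of GRCm38.p6.

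Groups were compared with limma 3.58.1 in R 4.3.3 (lmFit and eBayes, one model of 3 group means with 9 residual degrees of freedom, two-sided, Benjamini-Hochberg over all tested probes). The script was tested on simulated data. The genes named were Cyp2b10, members past the threshold, the 5 higher and 5 lower members with the smallest p per comparison among those above the limit on at least 4 arrays, the 12 brightest, members above the limit in all hearts of 1 group and in none of another, the Cyp2b genes, members at least 4-fold apart within a group, the 5 genes most like Cyp2b10, and per list the members past the threshold or else the 2 with the smallest p. Ahrr, Rxrb, Hmgcs1, Pmvk, Hsd17b7, Sc5d, Cyp2u1, Cyp17a1, Cyp39a1, Cyp4a12a, Gsta1, Cyp11b2 and the liver and steroid genes below the limit were named after their values were seen. The members and lists were chosen with earlier results of these data known. Replicate numbers recur between the groups, but deviations of same-numbered arrays correlated at -0.177 to 0.107, so they were not taken to pair the samples.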

Additional observations from a re-analysis of the deposited data

Results flagged for a closer look

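In groups of 4 arrays, the highest or lowest level was set against the gap that Dixon's test allows at 95%, and 6 of 50 tested groups of P450 levels exceeded it. Chance gives about 1 in 20 for genes not picked for their spread, which is no yardstick here. Cyp2f2 and Cyp2a5 were named because they were at least 4-fold apart within a group, and Cyp2e1 met that rule too. Flags on the same array are also not independent, so their number is a description. Young replicate 4 was far above its group for Cyp2f2 (log2 level 10.12, nearest other 4.53), Cyp2a5 (8.83, nearest 4.32) and Cyp2e1 (9.33, nearest 6.37). Spermidine replicate 3 was far above its group for Cyp2f2 (8.11, nearest 4.89) and Cyp2a5 (7.16, nearest 4.58). Both are the arrays with airway transcripts. Aged replicate 1 was below its group for Cyp7b1 (5.88, nearest 6.13), and it is the array with low atrial markers, whose part in this value was not tested.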

How the results depend on the processing

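Of 744 alternative values for 31 single-gene differences, 689 kept their direction and side of the threshold or moved less than the spread between replicates. For spermidine-treated aged against young hearts the count of P450 genes was 1 (Cyp2b10) in place of 0 with normexp background correction, scaling to the 75th percentile, the submitters' table, a pseudocount of 32, probes above the limit on at least 4 arrays, a fit of the 2 groups alone, array weights and a variance trend. Array weights gave 2 in aged against young hearts, with Cyp2b23 (log2 2.05, adjusted p = 0.0462). Passing by Cyp2b10 in any of these fits is a description, since the gene was chosen from these data. With a pseudocount of 64 the Cyp2b10 difference was 2.20 for aged minus young and 1.99 for spermidine minus young. Leaving out single arrays gave counts of 0 to 2 for aged against young, 0 to 0 for spermidine against aged and 0 to 1 for spermidine against young, and Cyp2b10 differences of 2.88 to 3.802, -0.60 to 0.34 and 2.92 to 3.48 for these comparisons in this order. The counts over all probes ranged from 71 to 373, 0 to 1 and 13 to 105 over settings, and from 41 to 591, 0 to 56 and 16 to 49 without single arrays.

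Some signs turned. With array weights, Cyp20a1 was 0.0167 for aged minus young and Cyp2s1 0.0477 for spermidine minus young. Without both arrays with airway transcripts, Cyp2e1 was 0.17 for aged minus young and -0.10 for spermidine minus aged, and Cyp20a1 was 0.0228 for spermidine minus young. Without single arrays, spermidine minus young ranged from -0.22 to 0.0226 for Cyp4f13, -0.27 to 0.0645 for Cyp2s1, -0.11 to 0.0412 for Cyp2j9 and -0.19 to 0.10 for Cyp20a1. Spermidine minus aged ranged from -0.10 to 1.14 for Cyp2e1, -0.18 to 0.000144 for Cyp2j9 and -0.83 to 0.0945 for Cyp2b23, and aged minus young from -0.90 to 0.17 for Cyp2e1 and -0.15 to 0.0928 for Cyp20a1. The cause was not tested. With the replicate number as a block, the counts of P450 genes stayed at 1, 0 and 0, and those over all probes were 96 in place of 164 for aged against young and 0 in place of 1 for spermidine against aged. Signal over background limits what dim probes can show: of the 51 genes below the limit throughout, 26 were not tested, and the levels of the other 25 are bounds.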
